A study of Mus musculus with 8 samples.

Results

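The response of wild-type (WT) peritoneal macrophages to 1 h of lipopolysaccharide (LPS) was followed in the WT channels of the arrays hybridised with RNA from unstimulated cells and with RNA from cells stimulated for 1 h. These are 4 channels of the 16 in the series, 2 unstimulated and 2 stimulated, and every gene probe on the array was considered. The macrophages came from C57BL/6 mice, either WT littermates or LysMCre-fur(fl/fl) animals (KO), in which Cre expressed from the lysozyme 2 locus deletes the gene of the proprotein convertase FURIN in myeloid cells. WT and KO RNA of a time point competed on each array under different dyes, and the series holds 2 biological replicates of each genotype that were unstimulated or stimulated for 1, 4 or 24 h. WT RNA was labelled with Cy3 in replicate 1 and with Cy5 in replicate 2, so that dye and replicate cannot be told apart within WT. The time points are those of the sample titles, whereas the growth protocol in the labels names 4 h of stimulation for every sample. All macrophages, stimulated or not, had been lavaged from the peritoneal cavity, cultured on plastic for 24 h, washed free of non-adherent cells and kept for 1 h in medium with little serum before the stimulation. The age of the mice and the number of animals behind a sample are not given in the sources used here, and the p-values measure only the spread between these samples.

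LPS, a constituent of the outer membrane of Gram-negative bacteria, is presented by CD14 to the receptor TLR4 and its partner MD-2 on macrophages. From there the adaptors MyD88 and TRIF activate NF-kB, the MAP kinases and IRF3, which switch on genes in waves. The first wave contains transcription factors, cytokines and chemokines that need no newly made protein, together with inhibitors that limit the response, and interferon beta made in that wave then induces a later set through factors that include STAT2 and IRF9.

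The labelled cell type was compared with marker genes. All 7 macrophage markers tested, of 8 listed, and all 10 markers of large peritoneal macrophages were well above background in the 4 WT channels, and the log2 of the summed intensity of the macrophage markers lay between 19.02 and 19.45 in them. All 9 B cell markers were also above background, with a log2 summed intensity of 15.97 to 16.42 and none called, as were 7 of 9 markers of T and NK cells (13.80 to 14.69), 6 of 7 of mast cells (13.01 to 13.58) and 4 of 5 of dendritic cells (11.63 to 12.84). Of the neutrophil markers, 3 of 8 were above background and Ngp, Ltf, Mpo, Cxcr2 and S100a9 were not in any WT channel, and the log2 summed intensity was 12.19 to 12.35. Eosinophil markers (2 of 5 above background, 9.02 to 9.19) and mesothelial and fibroblast markers (3 of 11 above background, 10.25 to 10.38) were the dimmest. Of the markers of other cells tested, 1 of 7 of mast cells, 1 of 8 of neutrophils and 2 of 5 of dendritic cells were called at 1 h, and none of B cells, T and NK cells, eosinophils or mesothelial cells and fibroblasts. Over everything tested, 8.49% was called. The called markers were Hdc (log2 fold change of 1.49, adjusted p = 0.000633), Camp (0.67, adjusted p = 0.0148), Zbtb46 (1.38, adjusted p = 7.7e-05) and Batf3 (-0.87, adjusted p = 0.0109). The part of other cells in the results was not tested, and in bulk RNA fewer cells of a type and less RNA per cell cannot be told apart. Between 46.2% and 51.3% of the gene spots were well above background in the WT channel of the 4 arrays, with no saturated spot.

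A gene was called when its adjusted p from limma's separate-channel analysis was below 0.05. After 1 h of LPS, 1247 of 36929 genes and transcripts tested were higher (3.38%) and 1889 were lower (5.12%), together 3136 (8.49%). With gene symbols they were 875 higher and 1448 lower. The rises were larger than the falls. Of the genes with a symbol, 364 rose and 194 fell at least 2-fold, 149 rose and 8 fell at least 4-fold, and 37 rose at least 16-fold while none fell as much. The median log2 change of the called genes was 0.85 for those that rose and -0.60 for those that fell, and the median of everything tested was -0.02. All 3136 calls had the same sign in both replicates, and the changes seen in the replicates differed by a median of 0.14 on the log2 scale among them. The calls were chosen from these same channels, which favours such agreement. The changes of the replicates correlated with r = 0.985 among the calls and r = 0.826 over everything tested. Of the 875 genes that rose, 45 were not well above background before stimulation. The counts of rises and of falls were lower in every fit without a single untreated or 1 h array. A fit of only the 4 untreated and 1 h arrays called 2887.

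**Figure D1:**
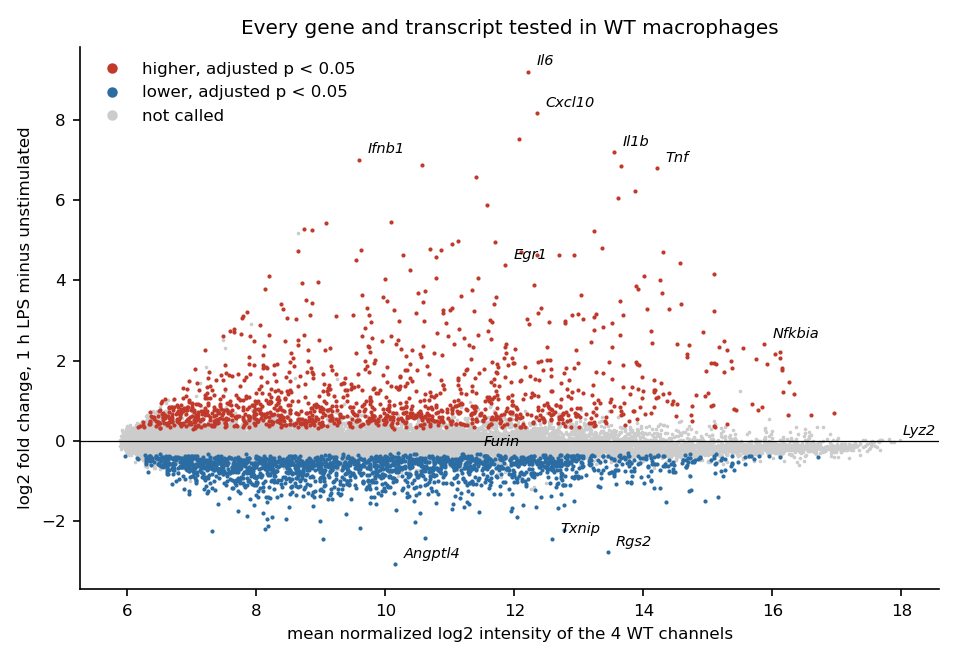
Log2 fold change from unstimulated to 1 h of LPS (y axis) against the mean normalized log2 intensity of the 4 WT channels (x axis) for every gene and transcript tested in WT macrophages, with called genes in colour. Rises reach 9.20 (Il6), whereas the deepest fall is -3.07 (Angptl4).

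The largest increases included cytokine and chemokine genes. Il6, the gene of a fever-inducing cytokine, had a normalized log2 intensity of 7.88 and 7.34 in the unstimulated WT channels of replicates 1 and 2 and of 17.11 and 16.50 after 1 h. Both stimulated values of Il6 lay far above the unstimulated ones, with a log2 fold change of 9.20 ± 0.28 (SE, n = 2 against 2; limma adjusted p = 2.68e-10), or 586-fold. Cxcl10, which encodes a chemokine for activated T cells, went from 8.14 and 8.40 to 16.58 and 16.27, a log2 change of 8.16 (SE 0.28). Tnfsf9, the ligand of the costimulatory receptor 4-1BB, went from 8.20 and 8.42 to 16.06 and 15.60, a change of 7.52 (SE 0.19). The gene of interleukin 1 beta, Il1b, stood at 10.20 and 9.70 before and at 17.41 and 16.90 after stimulation (log2 change of 7.20, SE 0.26). In these 4 genes the replicates of a condition differed far less than the conditions.

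Interferon beta, encoded by Ifnb1, was not well above background in unstimulated macrophages (6.09 and 6.08) and reached 13.22 and 12.97 after 1 h. Its rise is therefore a lower bound of at least 104-fold, set against the dimmest signal that counted as above background on the same arrays (adjusted p of the fit 7.19e-11). Ptgs2, the inducible cyclooxygenase, rose from 7.30 and 6.96 to 14.44 and 13.58 (log2 change of 6.88, SE 0.26). Tnf, the gene of the cytokine that names its family, rose from 10.81 in both replicates to 17.72 and 17.51 (6.80, SE 0.26). The neutrophil chemokine genes Cxcl1 and Cxcl2 rose by 6.85 and 6.05 on the log2 scale, Il1a by 6.58 and the chemokine gene Ccl4 by 6.22. Nfkbiz, which encodes a nuclear IkB protein that assists the transcription of Il6, rose by 5.89. The 15 largest increases closed with Csf2, the gene of granulocyte-macrophage colony-stimulating factor (5.42), and with the epidermal growth factor receptor ligands Ereg and Areg, which were not above background before stimulation and rose at least 31.7-fold and at least 34.3-fold. The value of Csf2 rested on 12.37 and 11.20 after 1 h and on an unstimulated level that was well above background in only 1 of the 2 channels (6.55 and 6.19). It was 4.83 without 1 h replicate 1, 6.01 without 1 h replicate 2 and 8.34 with the processed signals of Feature Extraction.

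Of these 15 genes, 11 have a promoter in the RefSeq table (assembly GRCm38.p6), and so have 12 of the 15 genes with the largest decreases. The 250 bases before the start were searched on both strands for short binding motifs of factors that LPS activates. These were the kB motif of NF-kB, a 10-base pattern with degenerate letters, the AP-1 motif TGANTCA, the palindromic cyclic AMP response element (CRE), the IRF motif of paired GAAA and the CArG motif of SRF. Shown are 6 promoters of strongly induced genes, 4 with a kB match and 2 without, and for contrast that of Txnip, whose transcript fell. Each is written 5′ to 3′ on the strand of the gene up to the base before the start, and the capitals mark the matches. The regions are chr5:30012864-30013113 (plus strand) for Il6, chr5:92348890-92349139 (minus strand) for Cxcl10, chr4:88522795-88523044 (minus strand) for Ifnb1, chr5:90903649-90903898 (plus strand) for Cxcl2, chr17:35202008-35202257 (minus strand) for Tnf, chr5:91139349-91139598 (plus strand) for Areg and chr3:96557707-96557956 (plus strand) for Txnip.
Il6: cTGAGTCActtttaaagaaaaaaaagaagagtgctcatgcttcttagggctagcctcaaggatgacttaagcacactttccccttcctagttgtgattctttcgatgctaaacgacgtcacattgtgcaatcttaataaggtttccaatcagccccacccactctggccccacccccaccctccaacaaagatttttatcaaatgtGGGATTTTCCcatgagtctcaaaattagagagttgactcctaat
Cxcl10: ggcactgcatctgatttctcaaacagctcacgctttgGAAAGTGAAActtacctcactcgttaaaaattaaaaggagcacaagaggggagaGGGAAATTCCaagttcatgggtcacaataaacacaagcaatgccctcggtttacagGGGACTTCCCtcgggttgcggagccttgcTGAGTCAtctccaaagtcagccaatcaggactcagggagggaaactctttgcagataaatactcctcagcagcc
Ifnb1: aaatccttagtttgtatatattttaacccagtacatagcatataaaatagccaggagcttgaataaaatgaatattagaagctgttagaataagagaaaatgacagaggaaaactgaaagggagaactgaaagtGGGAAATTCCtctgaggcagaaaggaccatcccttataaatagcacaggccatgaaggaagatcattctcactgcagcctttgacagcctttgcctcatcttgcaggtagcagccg
Cxcl2: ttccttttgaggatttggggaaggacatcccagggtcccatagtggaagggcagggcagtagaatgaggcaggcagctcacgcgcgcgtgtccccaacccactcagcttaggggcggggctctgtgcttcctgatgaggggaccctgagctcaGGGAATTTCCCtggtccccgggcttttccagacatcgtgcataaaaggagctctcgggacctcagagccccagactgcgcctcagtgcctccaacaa
Tnf: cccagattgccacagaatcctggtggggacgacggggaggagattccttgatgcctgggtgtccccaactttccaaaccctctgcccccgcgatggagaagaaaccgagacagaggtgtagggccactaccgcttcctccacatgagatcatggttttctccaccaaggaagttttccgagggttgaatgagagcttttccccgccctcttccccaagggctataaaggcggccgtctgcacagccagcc
Areg: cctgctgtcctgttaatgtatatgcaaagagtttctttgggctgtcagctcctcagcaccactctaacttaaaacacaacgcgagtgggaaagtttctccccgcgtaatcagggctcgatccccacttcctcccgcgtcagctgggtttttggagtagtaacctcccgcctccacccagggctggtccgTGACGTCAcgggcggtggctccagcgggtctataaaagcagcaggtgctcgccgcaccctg
Txnip: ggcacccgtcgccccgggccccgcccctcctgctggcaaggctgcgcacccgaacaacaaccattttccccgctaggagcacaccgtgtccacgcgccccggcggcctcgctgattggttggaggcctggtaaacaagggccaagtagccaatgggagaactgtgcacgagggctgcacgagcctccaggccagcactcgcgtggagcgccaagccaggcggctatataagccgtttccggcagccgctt

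A kB match stood in 5 of the 11 promoters of induced genes (Il6, Cxcl10, Ifnb1, Cxcl1 and Cxcl2) and in none of the 12 of genes that fell. In Il6 it lay 44 to 35 bases before the start, and an AP-1 match lay 249 to 243 bases before it. Cxcl10 held 2 kB matches (159 to 150 and 103 to 94 bases before the start), an IRF match (213 to 204) and an AP-1 match (74 to 68). The 2 kB matches of Cxcl1 and those of Cxcl2 lie on opposite strands and overlap by all but the outermost base. Areg held a CRE match 61 to 54 bases before the start, and Il1b, Ptgs2, Tnf and Csf2 held none of the motifs in this window. Among the promoters of genes that fell, Natd1 had an AP-1 match, S1pr2 a CRE match and Tmem140 an IRF match, and the other 9 had none. A kB match was found in 3.75% of the 27025 promoters of the table and in 4.03% of the 16519 that belong to genes tested. The share was 8.33% of 684 promoters of genes that rose, 16.1% of 112 promoters of genes that rose at least 4-fold, 3.38% of 1184 of genes that fell and 0.645% of 155 of genes that fell at least 2-fold. For the IRF motif the shares were 3.01% of genes tested, 4.97% of those that rose, 8.93% of those that rose at least 4-fold, 2.36% of those that fell and 2.58% of those that fell at least 2-fold. For AP-1 they were, in the same order, 6.30%, 5.26%, 11.6%, 2.96% and 2.58%, so that the share of all genes that rose lay below that of the genes tested. For CRE they were 2.10%, 3.95%, 6.25%, 2.79% and 4.52%, and for CArG 1.31%, 1.46%, 1.79%, 1.10% and 0.645%. A match describes the letters of the window and is not a measured binding site.

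**Figure D2:**
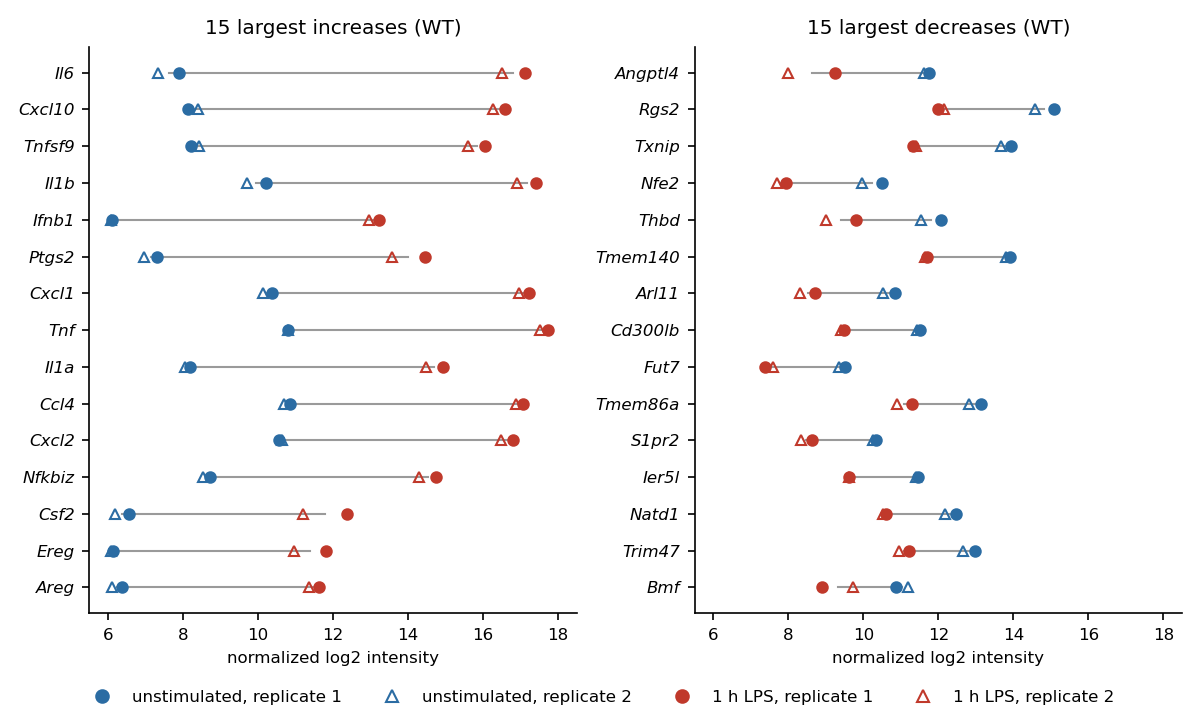
Normalized log2 intensity (x axis) of the 15 genes with the largest increase (left) and the 15 with the largest decrease (right) in each WT channel, unstimulated and after 1 h of LPS, with a symbol for each replicate. The unstimulated and stimulated values do not overlap for any of the 30 genes, which their choice as the largest called changes in these channels made likely. The replicates of Angptl4 after 1 h, at 9.25 and 7.98, stand furthest apart.

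The decreases were smaller, and the 15 largest came from genes with unstimulated means of 9.43 to 14.83. Rgs2, a regulator that shortens signals from G protein-coupled receptors, went from 15.09 and 14.57 to 11.98 and 12.14, a log2 change of -2.77 (SE 0.18, adjusted p = 2.49e-07). Its second probe changed by -1.25. Txnip, which encodes an inhibitor of thioredoxin and of glucose uptake, went from 13.95 and 13.66 to 11.32 and 11.41 (-2.44, SE 0.13), and its second probe by -2.05. Angptl4, the gene of a secreted lipase inhibitor, had the largest fall with the largest error, from 11.76 and 11.62 to 9.25 and 7.98 (-3.07, SE 0.59, adjusted p = 0.00413). The call of Angptl4 was lost without untreated replicate 1 (-3.00, adjusted p = 0.0516) and without 1 h replicate 2 (-2.44, adjusted p = 0.0732).

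Nfe2, a transcription factor of blood cells, fell by 2.43 on the log2 scale, and Thbd, the gene of the anticoagulant receptor thrombomodulin, fell by 2.41. Tmem140 decreased by 2.20, Arl11 by 2.17, Tmem86a by 1.89, Ier5l by 1.80, Natd1 by 1.77 and Trim47 by 1.73. The call of Tmem86a was lost with the processed signals of Feature Extraction (adjusted p = 0.109). Cd300lb, which encodes a receptor of myeloid cells, fell by 2.02, S1pr2, a receptor for sphingosine 1-phosphate, by 1.82, and Fut7, a fucosyltransferase that makes selectin ligands, by 1.93. The second probe of Fut7 changed by only -0.59. Bmf, a pro-apoptotic member of the BCL2 family, went from 10.86 and 11.19 to 8.91 and 9.72 (-1.71, adjusted p = 0.0139). That call was lost without untreated replicate 1 (adjusted p = 0.0588), untreated replicate 2 (0.118) or 1 h replicate 1 (0.11).

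Genes were then grouped by role, and each list is described by its calls and its median log2 change. Over everything tested 3.38% were called higher and 5.12% lower, with a median of -0.02. Everything tested includes dim transcripts and transcripts without a symbol. In a fit of only the 19829 genes and transcripts well above background in a WT group, 1390 rose and 2237 fell. Of 24 cytokine genes tested, 14 rose and none fell, with a median of 2.15. Beside those above, Il10, the gene of the main anti-inflammatory cytokine of macrophages, rose from 7.38 and 7.45 to 10.22 and 9.91 (2.65, SE 0.33, adjusted p = 0.000132). Others did not pass the test at this time. Il12a was not well above background in any WT channel at either time. Il18 changed by 0.43, Il15 by -0.19 and Tgfb1 by 0.19.

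Of 15 CC chemokine genes 5 rose, all of them at least 2-fold, and of 12 CXC chemokine genes 6 rose, with no fall in either list and medians of 0.46 and 0.50. Ccl2, which attracts monocytes, rose from 10.79 and 10.44 to 16.16 and 15.56 (5.24, SE 0.25). Ccl3 went from 12.06 and 11.86 to 16.78 and 16.55 (4.71, SE 0.27). Ccl7 rose by 4.04 (SE 0.54), with 12.63 and 11.41 after 1 h, and by 3.43 without 1 h replicate 1 and 4.65 without 1 h replicate 2. Cxcl3 rose by 2.70. Among the members that did not pass the test, the log2 changes were -0.09 for Ccl6, 0.56 for Ccl9, -0.19 for Ccl24, -0.24 for Cxcl13 and 0.08 for Pf4.

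Immediate early transcription factors rose in most cases, with 23 of 28 higher, none lower and a median of 2.00. The 23 include a gene that was not well above background in any WT channel at either time. In the fit of only genes well above background in a WT group, 22 of 26 rose. Csrnp1, a nuclear protein named for its cysteine and serine rich sequence, went from 10.81 and 11.09 to 15.86 and 15.68 (4.82, SE 0.15). Maff, a small MAF factor, went from 7.90 and 8.01 to 12.52 and 12.67 (4.64, SE 0.20), and the orphan nuclear receptor gene Nr4a1 from 12.08 and 12.61 to 16.80 and 16.77 (4.44, SE 0.18). Egr1, a zinc finger factor induced by ERK, went from 9.62 and 9.72 to 13.92 and 14.20 (4.39, SE 0.15). Fos, a subunit of AP-1, rose by 3.13 from 8.15 and 8.19. Values of Srf (0.33), Klf10 (-0.30), Bhlhe40 (0.22) and Mafk (0.11) did not pass the test, and Egr3 was not well above background in any WT channel at either time.

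**Figure D3:**
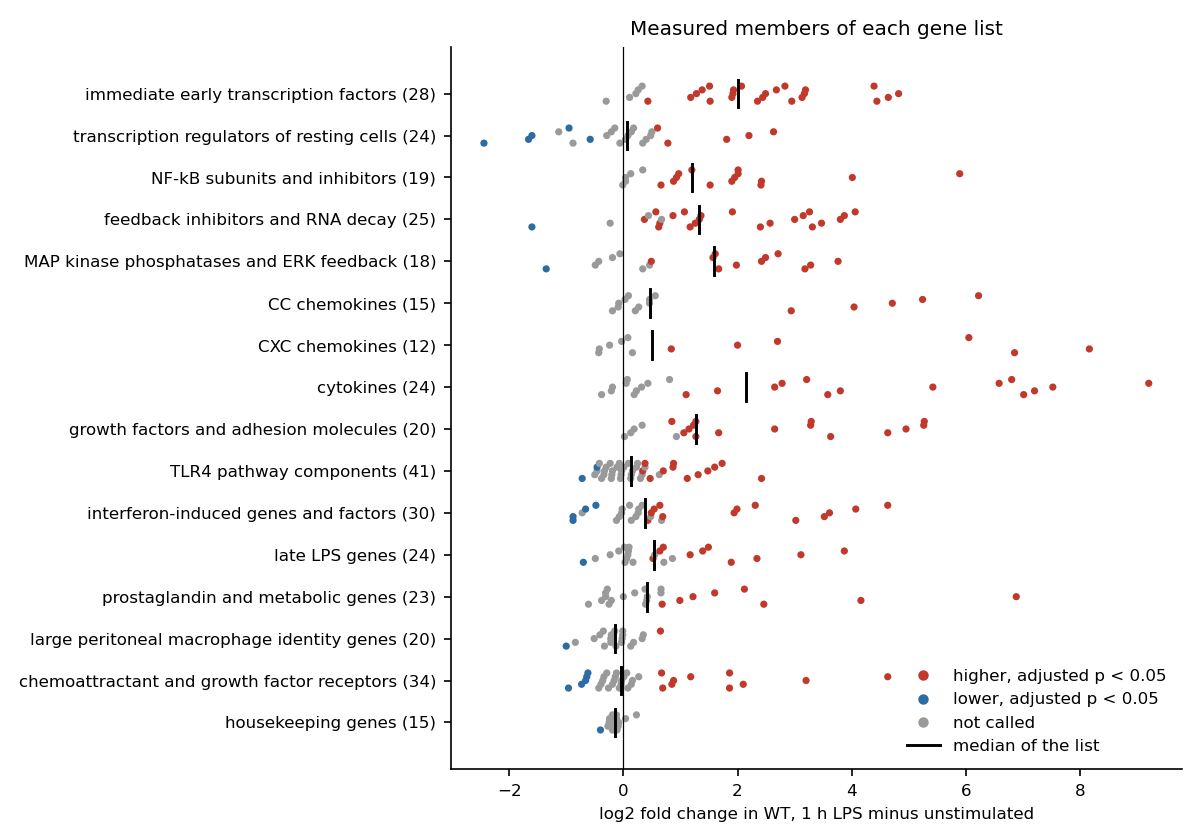
Log2 fold change from unstimulated to 1 h of LPS in WT macrophages (x axis) for the measured members of each gene list (rows), a point for each gene and a line at the median of the list. Immediate early factors, cytokines and phosphatases of MAP kinases lie mainly to the right of 0, with medians of 2.00, 2.15 and 1.59, whereas the housekeeping genes lie close to 0 with a median of -0.15.

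The transcription regulators of resting cells moved in both directions, with 5 of 24 higher, 5 lower and a median of 0.06. Cited2, which competes for the coactivators CBP and p300, rose by 2.63, Id3, an inhibitor of helix-loop-helix factors, by 2.20, and the repressor gene Bcl6 by 1.81. Btg1, an antiproliferative gene, rose by 0.78. Its call was lost without untreated replicate 1 (0.50, adjusted p = 0.21), 1 h replicate 1 (adjusted p = 0.107) or 1 h replicate 2 (adjusted p = 0.0755). Besides Txnip, Cebpa, a factor that directs myeloid differentiation, went from a mean of 12.80 to 11.26 and 11.01 after 1 h (-1.66, SE 0.15, adjusted p = 6.44e-06), and Sesn1, a stress-responsive regulator of growth signalling, fell by 1.60. Tsc22d3, the glucocorticoid-induced leucine zipper, fell by 0.95 (adjusted p = 0.00386, and 0.0691 without 1 h replicate 1). The factors Maf (-0.88) and Klf4 (0.34) did not pass the test. Of this list 3 genes were higher without untreated replicate 1 or without 1 h replicate 1.

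Of 19 genes of NF-kB subunits and their inhibitors, 14 rose and none fell, with a median of 1.20. Besides Nfkbiz, Nfkbia, which encodes IkB alpha, went from 14.62 and 14.72 to 17.23 and 16.92 (2.41, SE 0.14), Nfkbid rose by 2.42, and Tnfaip3, the gene of the ubiquitin-editing enzyme A20, went from 12.20 and 12.30 to 16.43 and 16.08 (4.01, SE 0.12). The subunit genes were higher by 0.93 for Nfkb1, 1.52 for Nfkb2, 0.88 for Rela, 0.66 for Relb and 1.90 for Rel, all called. The IkB kinase genes Chuk (0.34), Ikbkb (0.13), Ikbkg (0.04) and Ikbke (0.04) did not pass the test.

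Of 25 feedback inhibitors and RNA decay factors, 21 rose and 1 fell, with a median of 1.33. Zfp36, which encodes the RNA-destabilising protein tristetraprolin, went from 8.87 and 8.63 to 13.04 and 12.59 (4.06, SE 0.19). Socs3, an inhibitor of JAK kinases, rose by 3.87, Ppp1r15a, a phosphatase subunit that reverses the block of translation under stress, by 3.80, and the pseudokinase gene Trib1 by 3.47. The member that fell was Tnfaip8l2, a negative regulator of Toll-like receptor signalling, from 13.08 and 12.77 to 11.42 and 11.23 (-1.60, SE 0.15, adjusted p = 1.16e-05).

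Among 18 phosphatases of MAP kinases and inhibitors of ERK signalling, 11 rose and 1 fell, with a median of 1.59. Dusp1, which inactivates p38 and JNK, went from 9.41 and 9.53 to 13.31 and 13.14 (3.76, SE 0.24). Dusp2 went from 11.97 and 12.88 to 15.41 and 15.98 (3.28, SE 0.26), so that replicate 2 stood above replicate 1 before and after stimulation. Errfi1, an inhibitor of the epidermal growth factor receptor, rose by 3.18, and Spry1 rose at least 6.07-fold from a level not above background. Dusp7, an ERK phosphatase, fell from 9.59 and 9.51 to 8.20 in both replicates (-1.35, SE 0.15).

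Of 41 genes listed as TLR4 pathway components, 12 rose and 2 fell, with a median of 0.13. The list also holds other receptors and signalling proteins, such as Tlr2 and Traf1. Of those that rose, 6 did so at least 2-fold. Traf1, a signalling adaptor of TNF receptors, rose by 2.42, Tlr2, the receptor for bacterial lipoproteins, went from 14.37 and 14.40 to 16.39 and 15.84 (1.73, SE 0.21), Birc3, a ubiquitin ligase that protects from cell death, rose by 1.60, and Cd14 rose by 1.48 (adjusted p = 0.00188). Tlr4 itself changed by -0.50 and Ly96, the gene of MD-2, by -0.11, neither past the threshold. Tab1, a partner of the kinase TAK1, fell by 0.72 (adjusted p = 0.00141). Mapk3, the gene of ERK1, changed by -0.46 with an adjusted p of 0.0499, and its call was lost without any 1 of the 4 arrays (adjusted p of 0.337, 0.119, 0.158 and 0.279).

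Interferon-induced genes did not move together at 1 h. Of 30 tested, 13 rose and 4 fell, with a median of 0.38. Isg15, a ubiquitin-like modifier, went from a mean of 10.62 to 15.27 and 15.22 after 1 h (4.63, SE 0.14). Oasl1 rose by 4.07, the guanylate-binding protein gene Gbp5 by 3.61 and Ifit1, which binds viral RNA, by 3.52. Other members of the same list had not moved past the threshold, with log2 changes of 0.33 for Irf7, -0.07 for Oas1a, -0.03 for Oasl2 and 0.48 for Ifit3.

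The 4 genes that fell act in interferon signalling. Irf8, a factor that shapes macrophage differentiation, went from 14.55 and 14.48 to 13.51 and 13.77 (-0.88, SE 0.10, adjusted p = 7.29e-05). Stat2 and Irf9, subunits of the factor that carries the interferon signal to the nucleus, changed by -0.66 (adjusted p = 0.0181) and -0.48 (adjusted p = 0.00744), and Usp18, a brake on the interferon receptor, by -0.88 (adjusted p = 0.0429). Irf8 kept its call whichever array was left out. The call of Stat2 was lost without untreated replicate 2 (adjusted p = 0.197) or 1 h replicate 1 (0.17), that of Irf9 without untreated replicate 1 (0.0543) or 1 h replicate 2 (0.112), and that of Usp18 without untreated replicate 1 (0.414) or 1 h replicate 2 (0.413). The number of genes of this list that rose was 8 without untreated replicate 1, without 1 h replicate 1 or without 1 h replicate 2, and the number that fell was 2 without untreated replicate 1 or 1 h replicate 2, 2 with the processed signals of Feature Extraction and 1 in a fit of only the 4 WT channels.

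Growth factors, coagulation factors and adhesion molecules rose in 15 of 20 cases, with none lower and a median of 1.27. F3, the gene of tissue factor, which starts blood coagulation, went from 9.88 and 8.57 to 14.56 and 13.79 (4.95, SE 0.45). Its unstimulated replicates stood apart, and the change was 5.61 without untreated replicate 1 and 4.29 without untreated replicate 2. Thbd, described above, moved the other way from this clotting initiator.

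Of 24 genes known to rise late after LPS, 10 rose and 1 fell at 1 h, with a median of 0.54. Fpr1, a receptor for bacterial formyl peptides, rose by 2.34, and Gch1, which makes the cofactor of nitric oxide synthase, by 1.89. Ch25h, the gene of cholesterol 25-hydroxylase, rose at least 7.89-fold from a level not above background. The inducible nitric oxide synthase gene Nos2 changed by 0.08 and Lcn2, which encodes an iron-sequestering protein, by 0.10, neither past the threshold. The brightest probe of Cd80, a costimulatory ligand of T cells, changed by -0.70 (adjusted p = 0.0104) whereas its second probe changed by 0.88, and the call was lost without any 1 of the 4 arrays (adjusted p of 0.0914, 0.0555, 0.0551 and 0.108).

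Among 23 prostaglandin and metabolic genes, 8 rose and none fell, with a median of 0.41. Apart from Ptgs2, Acod1, whose enzyme makes itaconate, went from 12.68 and 13.36 to 17.19 and 17.17 (4.16, SE 0.17). Mt2, a metallothionein, rose by 2.46, and Slc7a11, the cystine transporter, by 2.12. Among the members that did not pass the test, Hk2 changed by 0.42, Pfkfb3 by -0.61 and Ldha by -0.21.

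Receptors for chemoattractants, growth factors and lipids moved both ways. Of 34 genes, 10 rose and 5 fell, with a median of -0.03. Ccrl2, an atypical receptor that binds chemerin, went from 9.95 and 10.11 to 14.68 and 14.64 (4.63, SE 0.20), and C5ar1, the receptor of complement fragment C5a, from 10.80 and 10.72 to 14.10 and 13.83 (3.20, SE 0.15). Hcar2, a receptor for niacin and beta-hydroxybutyrate, rose by 2.10, and the adenosine receptor gene Adora2b by 1.86. Tgfbr1, a receptor for TGF-beta, went from 11.57 and 11.56 to 10.92 and 10.88 (-0.66, SE 0.09, adjusted p = 0.000399).

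Of the other receptors that fell, Ptger2, a receptor for prostaglandin E2, changed by -0.96 (adjusted p = 0.00487, but 0.0536 without untreated replicate 2 and 0.0848 without 1 h replicate 2). Il6ra, the interleukin 6 receptor, changed by -0.73 (0.00366, but 0.058 without untreated replicate 2 and 0.0558 without 1 h replicate 1). The chemokine receptor gene Cxcr4 changed by -0.64 (adjusted p = 0.0165, but 0.0614, 0.149 and 0.172 without untreated replicate 1, untreated replicate 2 and 1 h replicate 1). The number of receptors that fell was 2 without untreated replicate 2 and 3 without 1 h replicate 1. The macrophage growth factor receptor gene Csf1r changed by -0.12 and did not pass the test.

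The genes that mark large peritoneal macrophages mostly did not pass the test at 1 h, with 1 of 20 higher, 1 lower and a median of -0.14. The number lower was 3 in the fit with replicate block and dye and 0 with only the 4 WT channels. It was 3 of 19 in the fit of only genes well above background in a WT group. Gata6, the transcription factor that defines these cells, went from 10.53 and 9.93 to 9.66 and 8.79 (-1.0, SE 0.27, adjusted p = 0.0317), a call lost without untreated replicate 1 (-0.70, adjusted p = 0.326) or 1 h replicate 2 (-0.57, adjusted p = 0.373). F10, the gene of coagulation factor X, changed by 0.65 (adjusted p = 0.0183), its second probe by -0.24, and its call was lost without untreated replicate 1 (adjusted p = 0.0618), untreated replicate 2 (0.163) or 1 h replicate 1 (0.214). Lyz2, whose locus carries the Cre in the KO, was at 18.10 and 17.70 before and at 18.10 and 17.67 after LPS (-0.01, adjusted p = 0.988). Furin was at 11.56 and 11.48 before and at 11.27 and 11.24 after 1 h (-0.27, SE 0.14), which did not pass the test (adjusted p = 0.339). The housekeeping genes had a median of -0.15. Actb changed by 0.04 and Gapdh by -0.27.

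To place the 1 h values in time, the WT channels at 4 h were compared with those at 1 h, which share the 1 h channels with the comparison above. Between these times 5131 genes and transcripts rose (13.9%) and 5796 fell (15.7%). Of the 28 immediate early factors, 15 were lower and 5 higher at 4 h than at 1 h, with a median change of -0.61. Egr1 fell by 3.36 after 1 h, to 10.76 and 10.64 at 4 h, and stood at 10.32 and 9.94 at 24 h. Nr4a1 decreased by 2.78 between 1 and 4 h, Ppp1r15a by 1.95, Trib1 by 1.94, Nfkbiz by 1.56, Zfp36 by 1.47, Tnfsf9 by 1.45 and Dusp1 by 1.23, all past the threshold. These transcripts were therefore higher at 1 h than at 4 h.

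Several mediators did not differ between 1 and 4 h past the threshold. Il6 changed by 0.35 between these times (adjusted p = 0.439), Il1b by 0.24 (0.604), Tnf by 0.23 (0.623), Ifnb1 by 0.18 (0.563) and Cxcl1 by 0.32 (0.563). Their levels at 24 h were not alike. Il6 was still at 16.79 and 17.26 at 24 h and Il1b at 17.21 and 17.51, whereas Tnf was at 13.18 and 13.91 and Ifnb1 at 7.71 and 7.63. Others went on rising after 1 h, among them Csf2 (3.11), Cxcl3 (2.82), Ptgs2 (2.35), Ccl7 (2.34) and Il10 (2.05).

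Of the interferon list, 26 of 30 genes rose from 1 to 4 h and 1 fell, with a median change of 3.55. The 4 genes of the list that were lower at 1 h turned upwards. Usp18 rose by 5.45 between 1 and 4 h, Stat2 by 3.28, Irf9 by 2.31 and Irf8 by 1.19. Ifit1 rose by a further 4.76, Oasl1 by 3.67 and Isg15 by 2.16. Tmem140, among the deepest falls at 1 h, rose by 2.21 in the same interval. Other genes that fell at 1 h went on falling, with 4 h minus 1 h changes of -3.92 for Tmem86a, -3.52 for Sesn1, -2.70 for Cebpa, -2.52 for Thbd, -2.33 for Cd300lb and -1.93 for Rgs2. Txnip and Dusp7 rose again by 0.49 and 0.61, and for Angptl4 the 0.54 was within its error (adjusted p = 0.599). Furin rose by 0.58 from 1 to 4 h (adjusted p = 0.00441). Against unstimulated cells its log2 change was 0.31 at 4 h and -0.40 at 24 h.

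**Figure D4:**
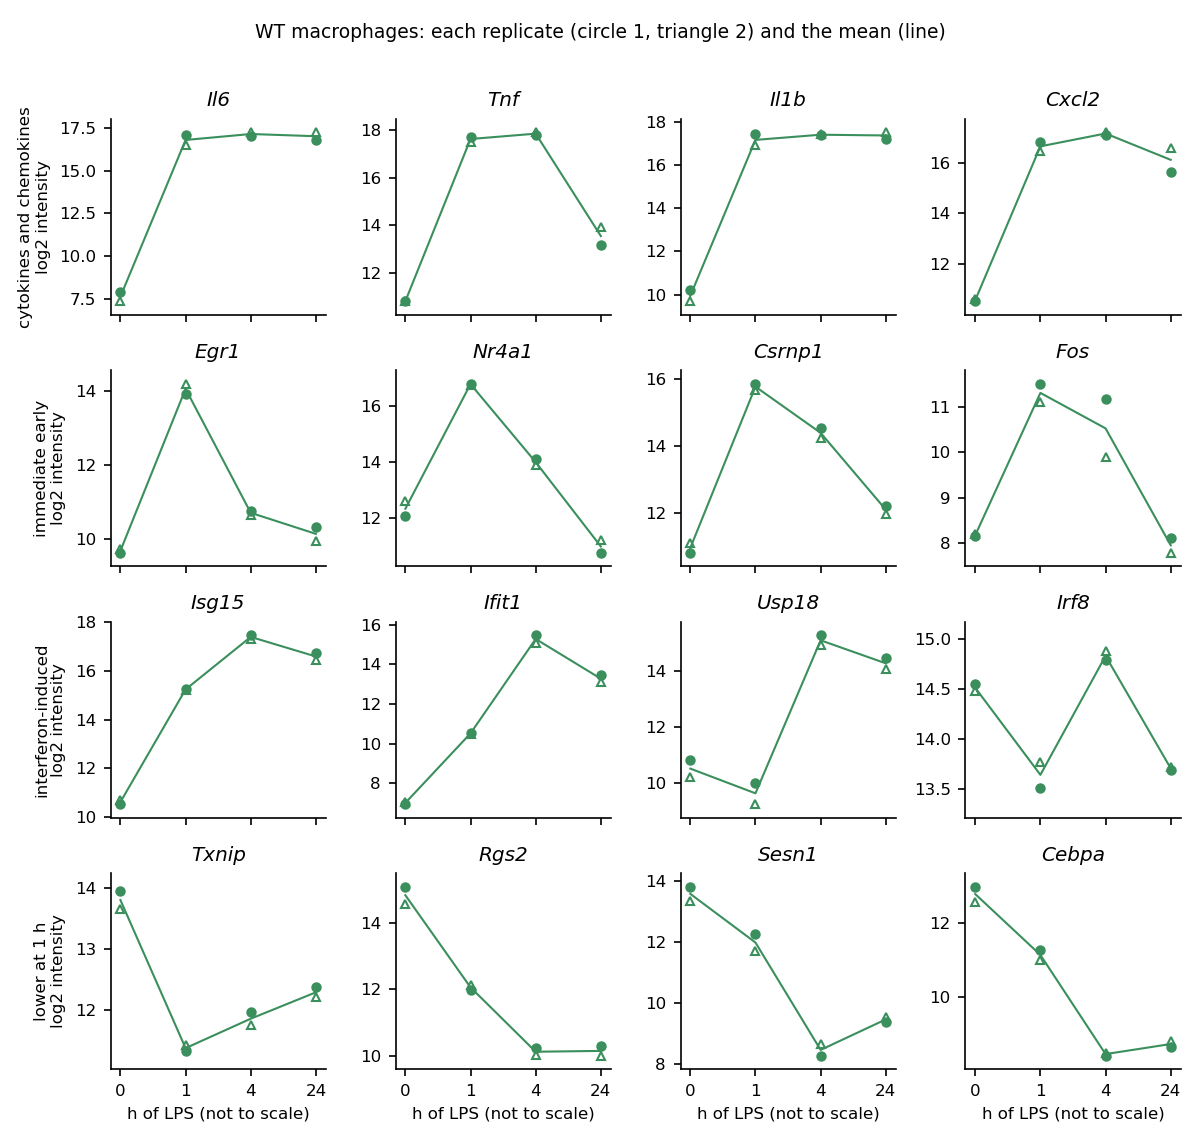
Normalized log2 intensity (y axis) in WT macrophages that were unstimulated or stimulated with LPS for 1, 4 and 24 h (x axis, not to scale), with a circle for replicate 1, a triangle for replicate 2 and a line through the means. Egr1 peaks at 1 h and is 3.36 lower at 4 h, Il6 stays high to 24 h, and Usp18 and Irf8 dip at 1 h before rising by 5.45 and 1.19.

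KO macrophages were hybridised on the same arrays, and the WT response was set against theirs with the interaction of genotype and stimulation. No gene or transcript passed the threshold (0 of 36929, 0%) in limma's separate-channel analysis, with a smallest adjusted p of 0.303 and 533 at an unadjusted p below 0.05. In KO alone 2749 genes and transcripts were called between unstimulated cells and 1 h. Without 1 h replicate 1 the interaction called 12. The largest differences among the genes described above were all smaller rises in KO, with KO minus WT values of -1.33 (SE 0.35) for Il1b, -1.31 (SE 0.38) for Il6, -1.31 (SE 0.33) for Ccl2, -1.10 for Cxcl2, -1.09 (SE 0.31) for Hcar2 and -1.08 (SE 0.20) for C5ar1. For Il6 the KO channels were at 9.23 and 8.49 before stimulation, above both WT values, and at 16.60 and 16.90 after it, within the range of WT. C5ar1 was at 12.14 and 11.72 in unstimulated KO cells against 10.80 and 10.72 in WT, and at 14.08 and 14.03 against 14.10 and 13.83 after 1 h. The rise of Nfkbiz differed by 0.03 between KO and WT. The Furin probe was at 10.98 and 10.63 in unstimulated KO cells against 11.56 and 11.48 in WT. After 1 h it was at 10.71 and 10.69 in KO against 11.27 and 11.24 in WT.

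**Figure D5:**
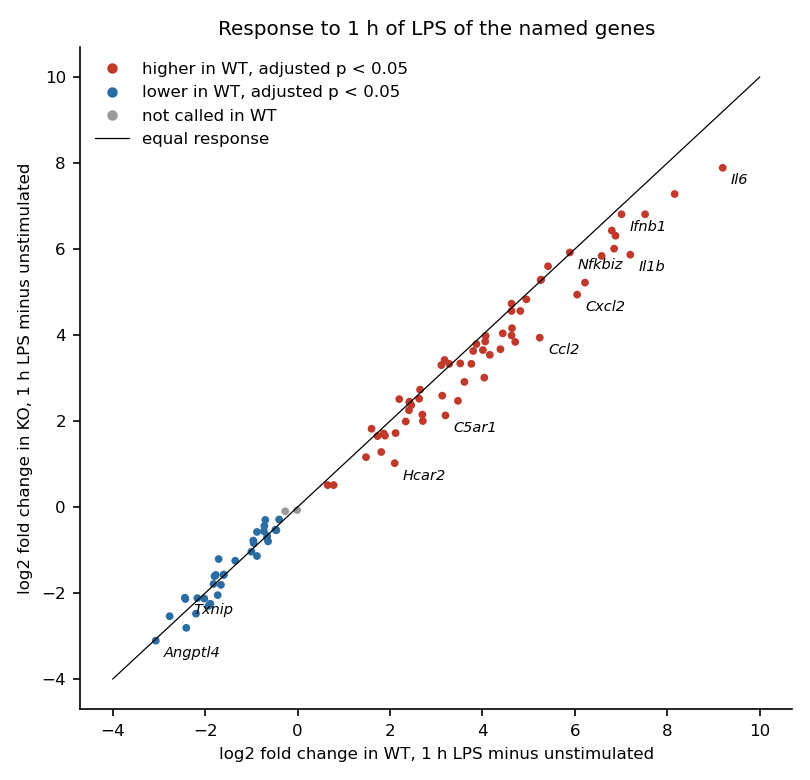
Log2 fold change from unstimulated to 1 h of LPS in KO (y axis) against that in WT (x axis) for the named genes, with the diagonal of equal change. Il1b (5.87 in KO, 7.20 in WT) and Il6 (7.89 and 9.20) lie below the diagonal, Ccrl2 (4.73 and 4.63) lies slightly above it, and no gene passed the test of the difference.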

How the data were processed

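RNA of WT and KO macrophages was hybridised on 8 Agilent 2-colour arrays, and the deposited scanner files hold for every spot a raw intensity per dye, extracted by the authors with Agilent Feature Extraction 10.7.3. The matrix of KO and WT log2 ratios deposited by the authors was not used, since it holds no WT level. Median signals were corrected with normexp (offset 50), normalized by loess within and by quantiles between arrays, and fitted with limma 3.58.1 in R 4.3.3 (separate-channel analysis, statmod 1.5.0, 16 channels in 8 groups, a within-spot correlation of 0.113). Outlier spots were left out. Of 55681 probes, 27509 were named through RefSeq identifiers for 20887 genes, and a gene was represented by its brightest probe. For 86 of the 683 called genes with several probes, another probe had the opposite sign. Of 37020 genes and transcripts, 71 whose mean log2 intensity was below 6 and 20 with missing values were dropped. Benjamini-Hochberg adjustment ran over the remaining 36929, with a threshold of 0.05. The number of arrays limits the precision.

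Named are the 15 largest increases and the 15 largest decreases among called genes with a symbol that moved the same way in both replicates and were above background in both channels of the higher group, up to 4 called genes in each direction from each list, and Tnf, Il1b, Il6, Il10, Nfkbia, Egr1, Fos, Cxcl2, Ccl3, Furin and Lyz2. Members of lists that did not pass the test may also be named. The 5 NF-kB subunit genes are given together as a family, chosen after their values were seen, and so are the marker genes called. The members and lists were chosen with earlier results of these data known. Il12b, Mx1, Mx2, Amd1 and Polr2a had no named probe and Mef2c was not tested. Alternatives varied the normalization, background correction, filter, choice of probe, samples in the fit, replicate block and test (the methods' t-test), and left out each array in turn. Scripts were tested on simulated data. Promoters came from the RefSeq table, with the first one listed for a gene. Some genes are not reported here.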

Additional observations from a re-analysis of the deposited data

How the results depend on the processing

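Over Aquantile, loess alone, Feature Extraction signals, no filter, a filter on detection, the mean of probes and a fit of 4 arrays, the counts of calls at 1 h over everything tested stayed within 1.5 times those reported. With only the 4 WT channels 1932 were called, 1049 of them lower. With the methods' t-test 4851 were called (1971 higher, 2880 lower) without adjustment and 0 after Benjamini-Hochberg, a test with 2 residual degrees of freedom for each gene. Without single arrays the calls ranged from 1797 to 2108, those higher from 792 to 976 and those lower from 1005 to 1213. The interaction of genotype and stimulation called 1 transcript with Feature Extraction signals, 1242 with the unadjusted t-test and 0 to 12 without single arrays. Between 1 and 4 h, of 10927 calls 11 were left with the adjusted t-test. Each fit without a single array called fewer than 10927, and not all of its calls were among them. The labels do not say that replicate numbers pair the samples. The deviations of WT samples from their group means correlated between time points with r from 0.339 to 0.565 across genes. A fit with the replicate block, here also a dye term, called 4377 (1711 higher, 2666 lower), among them all 3136, and changed no call of a named gene. Of 96 named genes, Cd80 turned to 0.09 with the mean of its probes (adjusted p = 0.809). Feature Extraction signals ended 10 calls, only the 4 WT channels 8, the unadjusted t-test 8, the adjusted one all 94, and leaving out an array 9 to 11, the mean of probes 3 with Cd80, the 4 arrays 2, loess alone 2 and Aquantile 1. The causes were not tested, apart from the fewer samples that these fits hold by construction.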

Other observations

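The groups in this section were chosen after the values were seen and are given as descriptions. Genes with Zfp symbols, which encode zinc finger proteins, mostly transcription factors, stood out among the falls. Of 338 tested, 119 fell (35.2%, against 5.12% of everything tested) and 15 rose. A log2 change below 0 was seen in 259, and the median of the 338 was -0.28. In the fit of only genes and transcripts well above background in a WT group, 130 of 285 fell, against 2237 of all 19829. Among the deepest, Zfp105 went from 9.02 and 8.84 to 7.57 and 7.45 (-1.42), Zfp61 from 9.60 and 9.58 to 8.08 and 8.35 (-1.38) and Zfp90 from 10.73 and 10.48 to 9.33 and 9.20 (-1.34), whereas Zfp131 rose from 10.04 and 10.33 to 12.61 and 12.46 (2.35). The number that fell was 78 without untreated replicate 1, 77 without untreated replicate 2, 60 without 1 h replicate 1, 91 without 1 h replicate 2 and 71 with only the 4 WT channels. The median lay between -0.33 and -0.25 without single arrays and was -0.47 with Feature Extraction signals. The number that rose was 8 without untreated replicate 1. From 1 to 4 h, 74 of these genes rose and 75 fell.

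Mki67, the gene of the proliferation marker Ki-67, rose from 9.85 and 9.66 to 14.64 and 14.27 (log2 change of 4.70, adjusted p = 2.79e-10), and by 4.26 in KO. It was the only call among 12 proliferation genes, where Top2a and Cdk1 both changed by 0.07. Of 16 clock genes 4 fell (25%, against 5.12% of everything tested), among them Cipc (-1.42), Usp2 (-1.39) and Dbp (-1.37), and 1, Arntl, was called higher (0.46, adjusted p = 0.0308). There were 3 that fell without untreated replicate 2 or without 1 h replicate 1, and no call of a higher clock gene without untreated replicate 1, untreated replicate 2 or 1 h replicate 1. Of 14 inflammasome and NOD receptor genes 5 rose (35.7%, against 3.38% of everything tested) and none fell, among them Mefv, which encodes pyrin (3.59), Nlrp3 (3.43) and Nod2 (2.82). Of 17 genes of the BCL2 family and Cflar, 5 rose (29.4%, against 3.38% of everything tested). Among them were the death-promoting Pmaip1 (3.27) and Bcl2l11 (2.50) together with the protective Cflar (2.97). In the fit of only genes and transcripts well above background, 1390 of 19829 rose and 2237 fell. There 4 of 14 clock genes fell, 5 of 13 inflammasome and NOD receptor genes rose, and of 14 BCL2 family genes 5 rose and 2 fell. Of the 17 BCL2 family genes, 2 fell (11.8%, against 5.12% of everything tested). Of the latter, 0 were left without untreated replicate 1 or without 1 h replicate 1, and 1 without untreated replicate 2 or without 1 h replicate 2. Of 6 markers of steroid-producing cells, Cyp11a1 and Hsd3b1 differed between the replicates far more than with stimulation. Cyp11a1 was at 10.75 and 10.69 in replicate 1 and at 7.84 and 7.82 in replicate 2, unstimulated and stimulated, and Hsd3b1 at 10.97 and 11.36 against 6.26 and 6.31, well above background in 1 of the 2 channels of each condition. Cyp17a1 (11.64 and 11.38 unstimulated, 11.42 and 11.64 after 1 h), Nr5a1, Star and Cyp11b1 showed no such split, and none of the 6 was called. The source of that difference was not tested.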
